A study of Homo sapiens with 12 samples.

Results

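The DNA replication genes described here are 45 human genes for the proteins that license replication origins, fire them, and copy DNA at the fork. They were taken by symbol from a fixed list and matched to Ensembl identifiers, and all 45 were found among the 60671 genes of the count table. All 45 also passed the filter on low counts and were among the 13236 genes tested. The RNA came from BJ-5ta cells, human fibroblasts immortalized with telomerase (hTERT), and poly(A) RNA was sequenced after synthetic ERCC spike-in RNA had been added to each sample. The 4 groups were wild-type cells in 10% serum (WT_10), wild-type cells after 10 days in 0.1% serum (WT_01), ΔLEO1 cells in 10% serum (Leo1_10) and ΔLEO1 cells after 10 days in 0.1% serum (Leo1_01), with 3 libraries each. LEO1 is a subunit of the PAF1 complex, which travels with elongating RNA polymerase II. All ΔLEO1 libraries came from a single CRISPR-Cas9 clone in which the first exons of LEO1 had been targeted, so an effect of the knockout and a property of that clone cannot be told apart. Both genotypes share the hTERT background, and the low serum condition is meant to bring the cells into quiescence.

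DNA replication is prepared in G1 phase, when the origin recognition complex (ORC), CDC6 and CDT1 load the MCM2 to MCM7 helicase onto origins. Geminin (GMNN) holds CDT1 in check, and at the start of S phase the kinase CDC7 with its activator DBF4, together with TICRR, TOPBP1, RECQL4, MCM10, CDC45 and the GINS complex, turns the loaded helicase into a moving one. Primase and the DNA polymerases alpha, delta and epsilon then make new DNA, held on the template by the PCNA clamp that the RFC complex loads, while FEN1 and LIG1 join Okazaki fragments and RPA covers single-stranded DNA. Many of these genes are known targets of E2F transcription factors, whose activity falls when fibroblasts leave the cell cycle, and TTTGGCG-like letters near the start site are the usual mark of an E2F site. By role, the 45 genes comprise 15 for origin licensing, 11 for origin firing, 6 for the clamp and its loader, 8 for polymerases and primase, 2 for Okazaki fragment maturation and 3 for RPA.

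The stretches before the start sites of 10 members are shown as examples of members with and without E2F-type letters. They cover 6 members with large responses to low serum (CDC6, CDT1, CDC45, GMNN, GINS2 and TICRR), a pair with other patterns (MCM6 and POLA2), and a pair with no E2F-type letters (ORC2 and ORC5). Sequences are from RefSeq on GRCh38.p14, 120 bases ending just before an annotated start, written 5′ to 3′ on the strand of the gene. Where a gene has several annotated starts, the stretch with the most E2F-type letters was chosen. Windows at other starts of CDC45 and GMNN hold no E2F-type letters. Capitals mark E2F-type letters, which are TTTGGCG, its variant TTTCCCG, the form TTTCGCG and the form TTTGCCG on either strand.
CDC6: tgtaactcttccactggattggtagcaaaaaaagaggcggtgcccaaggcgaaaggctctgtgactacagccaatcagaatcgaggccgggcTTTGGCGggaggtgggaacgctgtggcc
CDT1: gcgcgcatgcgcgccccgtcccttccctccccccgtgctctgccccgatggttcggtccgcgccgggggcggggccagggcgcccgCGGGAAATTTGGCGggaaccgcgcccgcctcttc
CDC45: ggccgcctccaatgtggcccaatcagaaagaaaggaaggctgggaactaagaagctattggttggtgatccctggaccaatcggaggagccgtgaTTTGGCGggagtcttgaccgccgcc
GMNN: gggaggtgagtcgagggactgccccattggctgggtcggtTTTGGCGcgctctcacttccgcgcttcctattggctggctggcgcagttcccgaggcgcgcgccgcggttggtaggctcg
GINS2: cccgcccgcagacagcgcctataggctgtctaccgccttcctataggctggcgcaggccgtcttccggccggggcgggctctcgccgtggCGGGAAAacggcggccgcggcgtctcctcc
TICRR: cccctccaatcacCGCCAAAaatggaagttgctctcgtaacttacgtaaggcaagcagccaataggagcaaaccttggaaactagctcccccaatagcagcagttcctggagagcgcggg
MCM6: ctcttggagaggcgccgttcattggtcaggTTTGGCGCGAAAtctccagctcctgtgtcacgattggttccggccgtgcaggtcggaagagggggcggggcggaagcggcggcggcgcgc
POLA2: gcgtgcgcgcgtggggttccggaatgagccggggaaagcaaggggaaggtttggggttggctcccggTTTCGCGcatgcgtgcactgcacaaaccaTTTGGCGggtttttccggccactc
ORC2: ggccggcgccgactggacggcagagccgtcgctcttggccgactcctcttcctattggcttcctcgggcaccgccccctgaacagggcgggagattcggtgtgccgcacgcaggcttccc
ORC5: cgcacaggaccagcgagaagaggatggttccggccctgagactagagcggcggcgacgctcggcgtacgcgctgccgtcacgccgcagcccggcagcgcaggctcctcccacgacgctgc
On GRCh38.p14 these stretches lie at chr17:40287759-40287878 (CDC6, plus strand), chr16:88803669-88803788 (CDT1, plus strand), chr22:19479800-19479919 (CDC45, plus strand), chr6:24775293-24775412 (GMNN, plus strand), chr16:85688955-85689074 (GINS2, minus strand). The others lie at chr15:89575349-89575468 (TICRR, plus strand), chr2:135876444-135876563 (MCM6, minus strand), chr11:65261842-65261961 (POLA2, plus strand), chr2:200963661-200963780 (ORC2, minus strand) and chr7:104208014-104208133 (ORC5, minus strand). Neighbouring matches overlap in MCM6, where the second lies on the other strand, and they adjoin in CDT1.

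Promoter windows reaching from 250 bases before to 50 bases after the start were found for 38 of the 45 members. E2F-type letters stood in 24 of these 38 (63.16%), in 16.59% of the 10210 tested genes with a window, and in 8.67% of all 35116 windows. A gene with several windows was counted where any of them held the letters. Shorter forms of the same letters (TTGGCG and the form TTCCCG, either strand), which include part of the longer matches, stood in 31 members (81.58%) and in 41.43% of tested genes. The CCAAT box stood in 21 members (55.26%) and in 43.31% of tested genes. The CHR letters TTTGAA, typical of late cell cycle genes, stood in 1 member, DBF4 (2.63%), and in 13.77% of tested genes. On the ERCC scale, the members with E2F-type letters had a median log2 fold change of -1.67 in low serum in wild type, against -1.38 for the 14 members without, whereas in ΔLEO1 the medians were -1.46 and -1.41. ORC3 and POLA1 hold E2F-type letters and were among the members that moved least. ORC1 (-2.11), ORC6 (-1.78) and FEN1 (-1.76) hold none of the longer letters and fell in wild type on that scale. Of these, ORC1 and ORC6 hold the shorter forms and FEN1 holds neither. A match of letters is a description and was not tested as a binding site.

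Libraries held between 26240632 and 45315560 gene counts, of which the smallest count of a member was 40, and spike-ins made up 0.625% to 3.24% of the counts. LEO1 itself, in CPM (gene counts scaled to a common library total), lay between 20.4 and 30.4 in the wild-type libraries and between 0.661 and 1.44 in the ΔLEO1 libraries. All 11 fibroblast markers exceeded 1 CPM in every library, whereas the 4 endothelial markers summed to at most 0.987 CPM. The 5 leukocyte markers summed to 1.10 to 1.84 CPM in wild type and 2.84 to 8.33 CPM in ΔLEO1, and the 3 smooth muscle markers to 17.2 to 104 CPM over all libraries. The 6 epithelial markers, of which 2 (KRT8 and KRT18) exceeded 1 CPM in every library, summed to 318 to 462 CPM in WT_10, 165 to 180.4 in WT_01, 841 to 1141 in Leo1_10 and 509 to 585 in Leo1_01, so each ΔLEO1 library lay above each wild-type library. The part of these markers in the differences between genotypes was not tested. Libraries carry running numbers from 1 to 12, and the highest-numbered library of each group (3, 6, 9 and 12) stood apart. Between the other libraries of a group, the members differed by a median of 0.0546 to 0.106 on the log2 CPM scale, whereas pairs with the highest-numbered library differed by 0.234 to 0.986. Chi-square per gene was 2.73 to 10.2 within the close pairs and 53.9 to 116 for the others, all above the 1 that counting noise alone would give, and the labels do not say whether libraries are separate cultures, so the spread may be technical. Counts of called members are therefore also given without these 4 libraries, an alternative chosen after seeing the data. Without them the spread of a fit comes from the close pairs alone, so its adjusted p-values may not cover the spread between cultures.

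Levels are given on 2 scales. An ERCC-scaled count is the count of a gene divided by the spike-in total of its library, after TMM adjustment of those totals and scaling by a common factor, and follows the amount of RNA of that gene against the spike-ins. Spike-in mix was added at the same dilution to each sample, and whether the samples started from equal cell numbers or equal RNA is not given in the sources used here. CPM and the matching fit with TMM scaling on the genes follow the share of a gene among all gene counts. Low serum moved the median of all tested genes by -0.97 (wild type) and -1.05 (ΔLEO1) on the log2 ERCC scale and by 0.0044 and 0.012 under TMM scaling on the genes, so a member at -1 on the ERCC scale moved as the typical gene did. Fold changes are log2 values with the standard error (SE) of the edgeR fit over all 12 libraries, and a member is called at a Benjamini-Hochberg adjusted p under 0.05 over all 13236 genes by the edgeR likelihood ratio test. For a single gene, an exact permutation test of 3 against 3 libraries cannot go below 0.1.

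**Figure D1:**
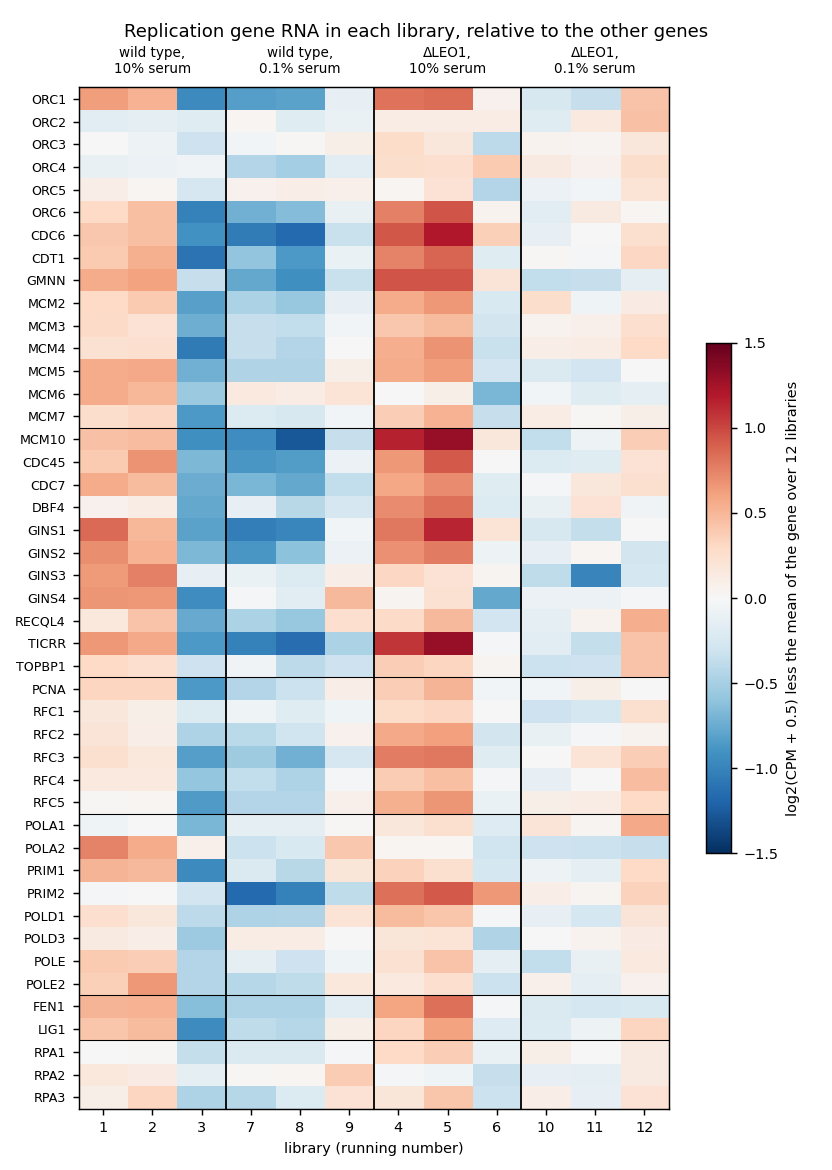
Level of each of the 45 members (rows, grouped by role) in each of the 12 libraries (columns, by group), as log2(CPM + 0.5) relative to its average across all 12 libraries. Libraries 3, 6, 9 and 12 differ from the other 2 libraries of their group, with library 3 low and libraries 9 and 12 at or above their neighbours for most members.

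Per length of exon, the clamp PCNA was the most abundant member in wild-type cells in 10% serum, at 42.6 CPM per kb (range 23.0 to 52.7 over 3 libraries). The single-strand binding subunit RPA2 followed at 16.6, MCM7 at 16.4, MCM3 at 16.1, RPA1 at 15.7 and MCM6 at 14.7 CPM per kb. The ranges of these 5 overlap each other but not that of PCNA. Length means all annotated exons of a gene merged, and these results depend on it. Merged exons span 1471 bases in PCNA and 4386 in MCM7, and the longest transcripts 1359 and 3084. Per longest transcript the ranges of PCNA and MCM7 overlap. At the low end stood the polymerase alpha subunit POLA2 at 0.537, the firing factor TICRR at 0.677 and the helicase subunit GINS3 at 0.833 CPM per kb, again with overlapping ranges. POLA2 shares 35.1% of its exon bases with AP000944.2 on the same strand, so its count is uncertain. PCNA was first, and POLA2, TICRR and GINS3 were among the 4 lowest, in each of the 4 groups.

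Subunits of one complex were not equally abundant. Within ORC, ORC3 stood at 6.83 CPM per kb in WT_10 (range 5.99 to 7.43), above ORC5 at 3.56 (range 3.04 to 3.92), ORC2 at 3.06 and ORC4 at 2.23 CPM per kb. ORC1, the subunit known to be made anew in each cell cycle, stood at 1.76 (range 0.695 to 2.38) and ORC6 at 1.49 CPM per kb (range 0.657 to 2.02), and these 2 overlap each other. In WT_01 the means of ORC1 and ORC6 were 0.97 and 1.01 CPM per kb, below the ranges of the other 4 subunits, while ORC3 stood at 7.56. The place of ORC6 depends on the length used. Merged exons span 4309 bases in ORC6 and 8915 in ORC4, and the longest transcripts 1833 and 6710. Per longest transcript the ORC6 mean lies within the ORC4 range in WT_01 and above the ORC4 mean in WT_10. Among the MCM2 to MCM7 helicase subunits, WT_10 means ran from 7.29 (MCM5) to 16.4 CPM per kb (MCM7), with ranges that overlap for each pair but MCM3 and MCM5. Per longest transcript (3208 bases in MCM3 and 4599 in MCM5) the ranges of that pair overlap as well. In GINS, GINS2 was highest at 2.98 and GINS3 lowest at 0.833 CPM per kb, and their WT_10 ranges did not overlap.

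**Figure D2:**
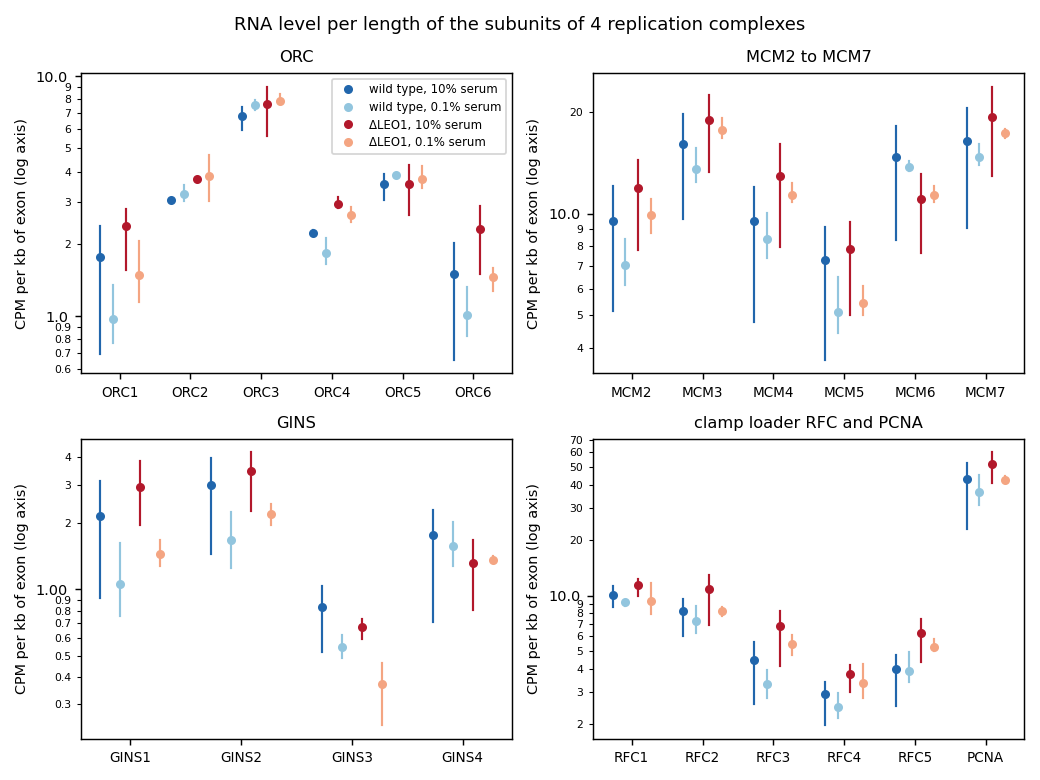
Level per length (CPM per kb of merged exon, log axis) of the subunits of ORC, the MCM2 to MCM7 helicase, GINS, and the RFC clamp loader with PCNA. Points are means of 3 libraries and lines span the lowest to the highest library of the group. Per merged exon length, ORC1 and ORC6 lie below ORC2 to ORC5 in WT_01, and for ORC6 this order depends on the length used.

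The first comparison asks how wild-type cells changed in low serum. On the ERCC scale 39 of the 45 members fell and none rose, against 36.1% of all tested genes called lower. In bulk RNA, fewer cells expressing a gene and less RNA of it per cell cannot be told apart. The 45 log2 fold changes ran from -2.51 to -0.95 with a median of -1.48, and 43 of the 45 lay below the all-gene median of -0.97. Under TMM scaling on the genes 10 members fell, against 16.6% of all genes, and the median was -0.39. Origin firing genes had the lowest median of the roles, at -2.05 with 11 of 11 lower, and of the licensing genes 12 of 15 were lower, with a median of -1.42. All 6 clamp and clamp loader genes fell (median -1.36), as did 6 of 8 polymerase and primase genes (median -1.51), both Okazaki fragment genes (FEN1 and LIG1, median -1.66) and 2 of 3 RPA genes. The 6 members not called were ORC2, ORC3, ORC5, POLA1, POLD3 and RPA2, whose fold changes of -1.02 to -0.95 lay at the all-gene median.

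The largest change was in TICRR, which brings TOPBP1 to the helicase so that origins can fire. Its ERCC-scaled counts were 958, 748 and 163 in WT_10 (libraries 1, 2 and 3) and 96.0, 110.3 and 120.2 in WT_01 (libraries 7, 8 and 9). The groups did not overlap, and library 3 lay close to the low serum libraries, a pattern that recurred in most of the members below. TICRR fell by 2.51 on the log2 ERCC scale (SE 0.50, adjusted p = 7.17e-05 by edgeR), and its fold change was -1.34 under TMM scaling on the genes (adjusted p = 0.015). TICRR shares 7.01% of its exon bases with KIF7 on the opposite strand.

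Other factors that fire origins fell as well. MCM10, which binds the helicase as it is activated, had 1331, 1121 and 264 ERCC-scaled counts in WT_10 and 177, 172 and 219 in WT_01, without overlap (log2 fold change -2.25, SE 0.49). CDC45, part of the active helicase, had 1089, 1115 and 268 and 154, 205 and 226 (-2.08, SE 0.50). In CDC45, as in MCM10, library 3 was the lowest of WT_10 and library 9 the highest of WT_01. The kinase CDC7 had 850.5, 665 and 170.1 and 119.6, 145 and 124 ERCC-scaled counts (-2.11, SE 0.51). Its activator DBF4 had 1449, 1252 and 434 and 469, 489.7 and 342, with overlapping groups and a fold change of -1.27 (SE 0.48, adjusted p = 0.0344). The kinase fell under both scalings, whereas its activator was not called under TMM scaling on the genes (-0.20, adjusted p = 0.632). DBF4 shares 12.4% of its 58-base stretches with its pseudogene DBF4P1.

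The 4 GINS genes, whose products join CDC45 and MCM2 to MCM7 in the moving helicase, all fell on the ERCC scale. GINS1 had 1604, 1035 and 259 ERCC-scaled counts in WT_10 and 145, 195 and 247 in WT_01 (-2.30, SE 0.49). GINS2 had 1639, 1204 and 329.5 and 191, 299 and 275 (-2.05, SE 0.49), and both stayed called under TMM scaling. GINS3 had 608, 555 and 184 and 127, 149 and 118 (-1.77, SE 0.51) and just missed the threshold under TMM scaling (adjusted p = 0.0501). In these 3 members the groups did not overlap, with library 3 the lowest of WT_10 each time. GINS4 fell by 1.41 on the log2 ERCC scale and was not called under TMM scaling (-0.25). The remaining firing factors TOPBP1 (-1.48) and RECQL4 (-1.46) fell on the ERCC scale and not under TMM scaling.

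Among the licensing genes, the fold changes of the loader CDC6 and the inhibitor GMNN were larger than those of the helicase genes. CDC6, the ATPase that loads MCM2 to MCM7 with ORC, had 2579, 2212 and 549 ERCC-scaled counts in WT_10 and 334, 393 and 449 in WT_01 (-2.18, SE 0.47, adjusted p = 0.000221). GMNN had 1971, 1697 and 565 and 279.6, 319.6 and 306 (-2.22, SE 0.48, adjusted p = 0.000238), and neither gene showed overlap. GMNN had the smallest p among licensing genes under TMM scaling (log2 fold change -1.11, adjusted p = 0.000841). CDT1, the partner of CDC6 that GMNN holds back, fell by 1.85 on the ERCC scale and was not called under TMM scaling (-0.69, adjusted p = 0.176). The 6 MCM2 to MCM7 genes fell by between 1.25 (MCM6) and 1.71 (MCM5), and none was called under TMM scaling, where their median was -0.29.

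Of the ORC genes, 3 were called lower on the ERCC scale and 3 were not. ORC1 (-2.11, SE 0.50), ORC6 (-1.78, SE 0.50) and ORC4 (-1.36, SE 0.47) fell on the ERCC scale. Under TMM scaling ORC1 and ORC6 were not called. ORC4 had 19.5, 19.8 and 20.3 CPM in WT_10 and 15.4, 14.7 and 18.8 CPM in WT_01, and it fell under TMM scaling by 0.37 (adjusted p = 0.0212). ORC3 showed the smallest change on the ERCC scale, with 3457, 2743 and 1536 ERCC-scaled counts in WT_10 and 1245, 1676 and 1092 in WT_01, and these groups overlap. Its CPM values were 27.4, 26.1 and 22.1 and 26.6, 27.8 and 29.3, and its log2 fold change was 0.061 under TMM scaling, so its sign depended on the scale. The same held for ORC2, ORC5, POLA1, POLD3 and RPA2, which lay between 0.00 and 0.07 under TMM scaling and below 0 on the ERCC scale.

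Of the genes at the fork, the large primase subunit PRIM2 fell most, with 2897, 2469.6 and 1332 ERCC-scaled counts in WT_10 and 478, 683 and 668 in WT_01 (log2 fold change -1.87, SE 0.46). It was 1 of 2 members, with ORC4, whose CPM values did not overlap between the wild-type groups (23.0, 23.5 and 19.2 against 10.2, 11.3 and 17.9 CPM), and it fell by 0.82 under TMM scaling (adjusted p = 0.000332). Its primase partner PRIM1 fell by 1.54 on the ERCC scale and was not called under TMM scaling. POLA1, the catalytic subunit of polymerase alpha, was not called (-1.0, adjusted p = 0.0735). The accessory subunit POLA2 fell on the ERCC scale (-1.78, SE 0.52) and was not called under TMM scaling. FEN1, the flap nuclease, had 4369.9, 3679 and 1068 and 821, 1058 and 811 ERCC-scaled counts (-1.76, SE 0.46), and it was not called under TMM scaling. PCNA fell by 1.42, the RFC genes by 1.21 (RFC5) to 1.62 (RFC3), and POLE2 of polymerase epsilon by 1.72 on the ERCC scale, none of them called under TMM scaling. PRIM2 shares 13.0% of its 58-base stretches with other annotated loci, and FEN1 8.68% of its exon bases with neighbouring genes.

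These calls depended on which libraries entered. The groups did not overlap in ERCC-scaled counts for 24 of the 45 members (53.4% of all genes) and in CPM for 2 (18.6% of all genes), so the shares of members were at or below the background. Without libraries 3, 6, 9 and 12, all 45 members fell on the ERCC scale, where 71.8% of all genes did, and 40 fell under TMM scaling, where 30.8% did. When 1 library at a time was left out, the fit without library 1 gave 11 members lower (9.1% of all genes), library 2 gave 16 (13.5%), library 7 gave 13 (8.67%) and library 9 gave 17 (9.79%). CDC6, CDT1, GMNN, ORC1, MCM10, CDC45, CDC7, GINS1, GINS2, TICRR and PRIM2 were called lower in each of the 12 fits that left out 1 library.

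**Figure D3:**
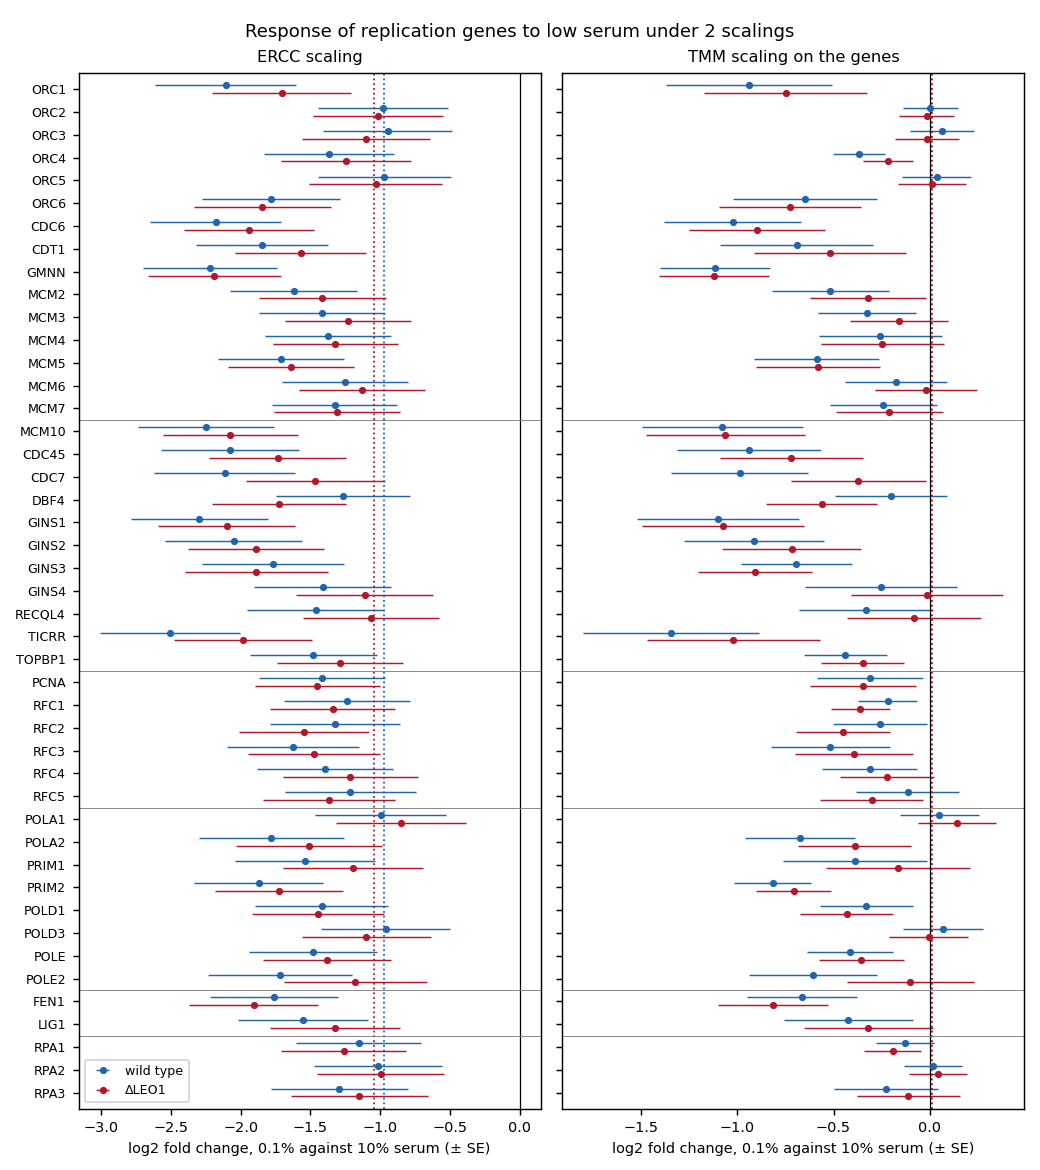
Log2 fold change (± SE) of 0.1% against 10% serum for the 45 members, in wild type (blue) and ΔLEO1 (red), with ERCC scaling (left) and TMM scaling on the genes (right). Dotted lines mark the median of all tested genes, at -0.97 and -1.05 on the left and near 0 on the right, and the origin firing genes extend farthest below them.

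The response of ΔLEO1 cells to low serum is the matching comparison. Of the 45 members 39 were lower and none higher on the ERCC scale, against 47.2% of all tested genes called lower, with a median of -1.38 beside an all-gene median of -1.05. Under TMM scaling on the genes 7 members fell (CDC6, GMNN, MCM10, GINS1, GINS3, PRIM2 and FEN1), against 12.9% of all genes, a share near that background, and the median was -0.35. By role, 13 of 15 licensing, 9 of 11 firing, 6 of 6 clamp and loader, 7 of 8 polymerase and primase, 2 of 2 Okazaki fragment and 2 of 3 RPA genes were lower on the ERCC scale. The 6 not called were ORC2, ORC5, GINS4, RECQL4, POLA1 and RPA2.

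GMNN changed most, with 3258, 2407 and 1275 ERCC-scaled counts in Leo1_10 (libraries 4, 5 and 6) and 421, 243 and 861 in Leo1_01 (libraries 10, 11 and 12). The groups did not overlap, and libraries 6 and 12 lay nearest to each other. GMNN fell by 2.19 on the ERCC scale (SE 0.48, adjusted p = 0.00043) and was at -1.12 under TMM scaling (adjusted p = 0.000822). GINS1 had 1929, 1828 and 843 and 301, 157 and 619 ERCC-scaled counts (-2.10, SE 0.49). MCM10 had 2789, 2286 and 909 and 306, 216 and 905 (-2.07, SE 0.48). In MCM10 libraries 6 and 12 were nearly equal on this scale, and in TICRR library 12 exceeded library 6, with 1639, 1435 and 487 in Leo1_10 and 215, 106 and 586 in Leo1_01. TICRR was lower on the ERCC scale (-1.98, SE 0.50) and not called under TMM scaling (adjusted p = 0.0738).

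CDC6 had 4677, 4171 and 2079 ERCC-scaled counts in Leo1_10 and 741, 462 and 1649.8 in Leo1_01, without overlap (-1.94, SE 0.47). FEN1 had 5835, 5048 and 2528 and 1098, 603 and 1876 (-1.91, SE 0.46), and its CPM values fell to a narrow 20.8, 20.1 and 20.7 in Leo1_01. GINS3, which was the GINS gene with the lowest level per length, had 595, 406 and 320.4 and 112, 36.8 and 213 ERCC-scaled counts (-1.89, SE 0.51), without overlap. PRIM2 had 6614, 5225 and 3904 and 1321, 725 and 2714 (-1.73, SE 0.46), again without overlap. For the kinase pair the order was the reverse of that in wild type, with DBF4 at -1.73 (SE 0.48) and CDC7 at -1.47 (SE 0.50), a difference between genotypes that did not pass the test given below for the interaction. POLA1 showed the smallest change (-0.85, adjusted p = 0.103) and was at 0.14 under TMM scaling.

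Here too, single libraries decided the count. In ERCC-scaled counts the groups did not overlap for 13 of 45 members (50.9% of all genes), and in CPM for 7 (15.8% of all genes), shares at or below the background. Without libraries 3, 6, 9 and 12 all 45 fell on the ERCC scale (92.5% of all genes) and 41 under TMM scaling (28.3%). Leaving out library 4 gave 7 members lower (6.33% of all genes), library 5 gave 21 (23.4%), library 10 gave 6 (4.82%) and library 11 gave 11 (8.22%). CDC6, GMNN, MCM10, GINS1 and FEN1 were called lower in each of the 12 fits that left out 1 library.

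The response to serum ran differently in the highest-numbered libraries. Between the lowest-numbered pairs of wild type (libraries 7 and 8 against 1 and 2), the median log2 ratio of the members was -1.90 in ERCC-scaled counts and -0.74 in CPM, with 45 and 42 of 45 negative. Between the highest-numbered libraries (9 against 3) it was -0.28 and 0.58, with 35 and 3 of 45 negative. In ΔLEO1 the lowest-numbered pairs gave -2.35 and -0.57, with all 45 negative on both scales, whereas libraries 12 and 6 gave 0.17 and 0.36, with 13 and 10 negative. Thus the direction of the member median in CPM turned between the close pairs and the highest-numbered libraries in both genotypes, and these single-library ratios carry no test.

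The 12 markers of cycling cells, such as MKI67 and CCNB1, moved across libraries with the members. Their median level in CPM in WT_10 lay at 0.53 and 0.64 above their own mean in libraries 1 and 2 and at -1.26 in library 3 (log2), where the members lay at 0.30, 0.37 and -0.68. In WT_01 they lay at -0.64, -0.74 and 0.09, and the members at -0.42, -0.43 and -0.04. In Leo1_10 the markers lay at 0.76, 0.93 and -0.04 and the members at 0.38, 0.51 and -0.18, and in Leo1_01 the markers at -0.17, -0.22 and 0.27 and the members at -0.11, -0.04 and 0.21. The part of this marker shift in the results for the members was not tested. All 12 markers fell in low serum on the ERCC scale in both genotypes, with medians of -1.86 and -1.73, and 2 of 12 did under TMM scaling in each genotype.

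**Figure D4:**
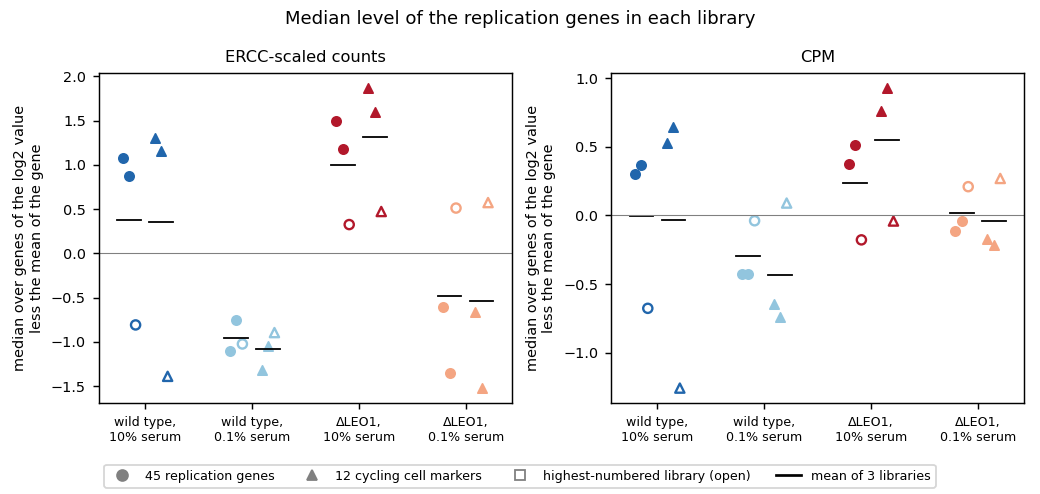
Median over the 45 members (circles) and over 12 markers of cycling cells (triangles) of the log2 level relative to the average of each gene, in each library of the 4 groups, on the ERCC scale (left) and in CPM (right). Open symbols are libraries 3, 9, 6 and 12, the highest-numbered of their groups, and both lists shift together, with library 3 at -0.68 and -1.26 in CPM.

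The second question is how ΔLEO1 cells differed from wild type at the same serum level. With ERCC scaling no member was called in 10% serum by the edgeR likelihood ratio test (4 members had an unadjusted p under 0.05, and the quasi-likelihood test and DESeq2 also called 0), where 4.2% of all genes were called higher. In 0.1% serum 1 member was higher, PRIM2, where 3.85% of all genes were. The member medians were 0.56 and 0.64 beside all-gene medians of 0.35 and 0.27. Under TMM scaling on the genes, ORC4, RFC5 and PRIM2 were higher in 10% serum (17.7% of all genes higher) and POLA2 was lower (21.8% lower), and ORC4, CDC6 and PRIM2 were higher in 0.1% serum (15.4% higher). By the quasi-likelihood test under the same scaling, the calls of ORC4 and PRIM2 were kept in both serum levels and those of RFC5, POLA2 and CDC6 were lost (adjusted p = 0.0687, 0.0578 and 0.0712). The shares of members called were below these background shares, and the member medians were 0.27 in both serum levels.

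PRIM2, located on chromosome 6 (57314805 to 57646849, GRCh38), showed the clearest difference. Its CPM values in 10% serum were 23.0, 23.5 and 19.2 in wild type and 41.8, 44.8 and 37.0 in ΔLEO1, and in 0.1% serum 10.2, 11.3 and 17.9 and 25.1, 24.2 and 29.9. Each ΔLEO1 library was higher than each wild-type library of the same serum level, also in ERCC-scaled counts. The log2 fold changes were 0.90 (SE 0.19, adjusted p = 2.59e-05) and 1.02 (SE 0.20, adjusted p = 3.7e-06) by edgeR under TMM scaling. On the ERCC scale they were 1.23 (SE 0.46, adjusted p = 0.0818) and 1.38 (SE 0.46, adjusted p = 0.0454). The ERCC call in 0.1% serum held in 3 of the 12 fits that left out 1 library, with fold changes from 0.75 to 1.73. The other 3 members of the polymerase alpha and primase complex did not share this pattern, with PRIM1 at -0.03 and 0.19, POLA1 at 0.30 and 0.40, and POLA2 at -0.68 and -0.40 under TMM scaling.

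POLA2 (chromosome 11, 65261762 to 65305589) had 3.78, 3.24 and 2.19 CPM in WT_10 and 2.11, 2.10 and 1.58 CPM in Leo1_10, without overlap. It was lower in ΔLEO1 in 10% serum under TMM scaling (-0.68, SE 0.28, adjusted p = 0.0393) and not called on the ERCC scale (-0.38, adjusted p = 0.716). In 0.1% serum it had 1.54, 1.68 and 2.87 CPM in wild type and 1.55, 1.54 and 1.501 CPM in ΔLEO1, where library 9 alone stood well above the ΔLEO1 values.

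ORC4 (chromosome 2, 147930397 to 148021604), an ATPase subunit of ORC, had 19.5, 19.8 and 20.3 CPM in WT_10 against 25.5, 25.1 and 27.9 CPM in Leo1_10. In low serum it had 15.4, 14.7 and 18.8 CPM in wild type against 23.1, 22.0 and 25.4 CPM in ΔLEO1, so neither serum level showed overlap in CPM. Its log2 fold changes under TMM scaling were 0.39 (SE 0.13, adjusted p = 0.00926) and 0.54 (SE 0.13, adjusted p = 0.000329). ORC4 shares 6.58% of its exon bases with ACVR2A and MBD5 on the opposite strand, and whether the counting used strand is not given in the sources used here. The other ORC genes were not called under TMM scaling and lay between -0.012 (ORC5) and 0.61 (ORC6) in 10% serum.

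CDC6 (chromosome 17, 40287633 to 40304657) had 7.13, 6.52 and 12.03 CPM in WT_01 and 14.1, 15.4 and 18.2 CPM in Leo1_01, without overlap (0.90, SE 0.35, adjusted p = 0.0363 under TMM scaling). In 10% serum it had 20.5, 21.1 and 7.91 and 29.6, 35.8 and 19.7 CPM, with overlap because library 6 lay below libraries 1 and 2 (0.77, adjusted p = 0.0664). RFC5, a clamp loader subunit, had 15.4, 15.5 and 8.16 CPM in WT_10 and 22.2, 24.4 and 14.2 CPM in Leo1_10 (0.63, SE 0.27, adjusted p = 0.047). The RFC5 groups overlap, since library 6 lay below libraries 1 and 2, and 10.6% of its exon bases are shared with WSB2 and a noncoding gene on the opposite strand. Of the firing factors, MCM10 was at 0.86 and 0.88 and TICRR at 0.67 and 0.99, none of them called. GINS3, GINS4, MCM6 and RPA2 lay below 0 under TMM scaling in both serum levels and were not called.

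Without libraries 3, 6, 9 and 12 many more differences between genotypes were called under TMM scaling. The spread in that fit comes from the close pairs alone. It may be technical, so the adjusted p-values may not cover the spread between cultures. In 10% serum 23 members were then higher in ΔLEO1 (31.0% of all genes) and 6 lower (32.5%), the latter being MCM6, GINS3, GINS4, POLA2, POLE2 and RPA2. In 0.1% serum 32 members were higher (31.2% of all genes) and 2 lower (29.7%), MCM6 and GINS3. PRIM2 was at 0.89 and 1.25, CDC6 at 0.64 and 1.16, and ORC4 at 0.35 and 0.64 in that fit. The ERCC-scaled fit without the 4 libraries called 2 members in 10% serum and 0 in 0.1% serum, so the counts moved with the scale too. The share of all genes in that fit is not given here, so this drop is not a result about the members.

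**Figure D5:**
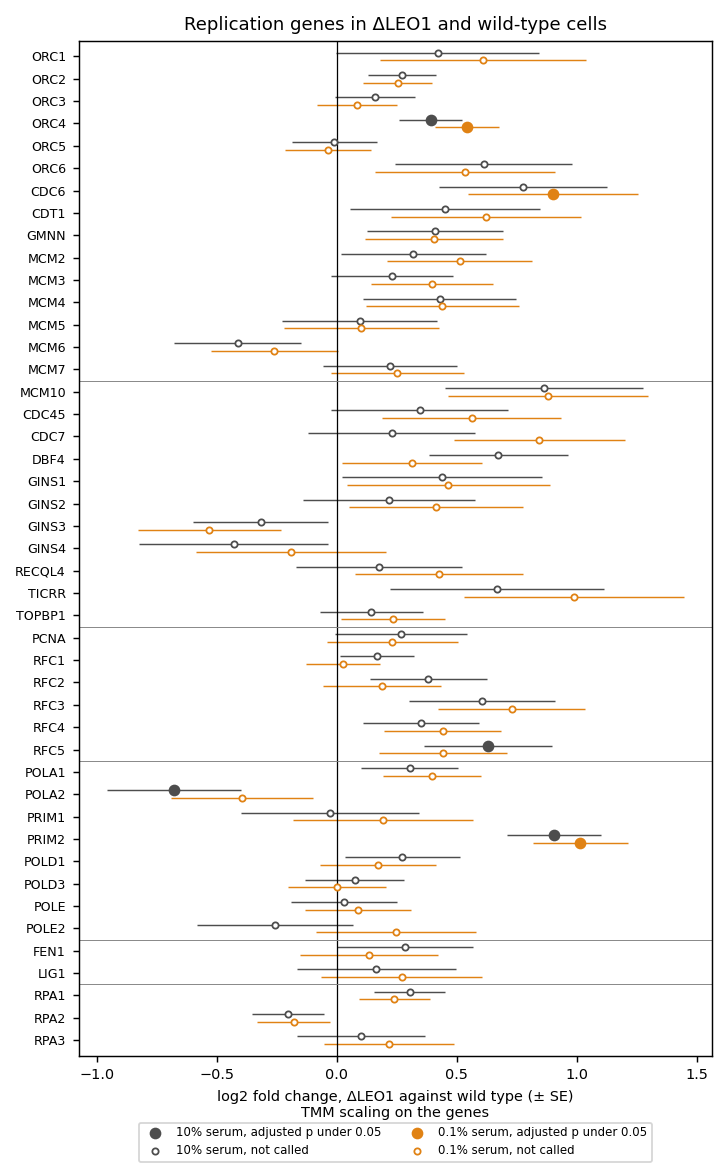
Log2 fold change (± SE) of ΔLEO1 against wild type for the 45 members under TMM scaling on the genes, in 10% serum (grey) and in 0.1% serum (orange). Filled points are called at an adjusted p under 0.05 by edgeR, and PRIM2 stands highest at 0.90 and 1.02 while POLA2 stands lowest at -0.68 in 10% serum.

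The interaction asks whether the response to serum differed between the genotypes. No member was called on the ERCC scale, where 0.219% of all genes were, and none under TMM scaling on the genes, where 4.08% were. No member had an unadjusted p under 0.05 by the edgeR likelihood ratio test in either, and the quasi-likelihood test and DESeq2 also called 0. On the ERCC scale the difference was most positive for CDC7 (0.65, SE 0.71), which fell more in wild type, and most negative for DBF4 (-0.46, SE 0.68), which fell more in ΔLEO1. The standard errors of these differences, 0.63 to 0.74 over the members, leave room for differences larger than those seen. Across the 45 members the 2 responses to serum, which share no libraries, correlated with Pearson's r of 0.844 and Spearman's rho of 0.808 on the ERCC scale, a description over genes that are not independent.

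Without libraries 3, 6, 9 and 12, and under TMM scaling, 14 members had a positive interaction (17.3% of all genes) and 1, RFC1, a negative one (9.85%). The 14 were CDC6, CDT1, MCM2, MCM3, MCM6, CDC45, CDC7, GINS2, GINS4, RECQL4, PCNA, POLA2, PRIM2 and POLE2. On the ERCC scale without the same libraries no member was called in the interaction. There the sign was negative for most of the 14, as in CDC6 (-0.16), PCNA (-0.35) and PRIM2 (-0.32). Only CDC7 (0.15), POLA2 (0.056) and POLE2 (0.22) stayed positive, so the direction rests on the scale as well. Of the 14, CDC7 had the smallest adjusted p by edgeR under TMM scaling and is not typical of them. CDC7 had 6.74, 6.33 and 2.45 CPM in WT_10 and 2.55, 2.40 and 3.31 CPM in WT_01. In ΔLEO1 it had 6.88, 7.57 and 3.85 CPM in Leo1_10 and 4.37, 5.04 and 5.33 CPM in Leo1_01. Among the lower-numbered libraries the step down was larger in wild type than in ΔLEO1, whereas library 3 lay below library 9 and library 6 below library 12. Under TMM scaling the interaction of CDC7 by edgeR was 0.84 without the highest-numbered libraries (adjusted p = 0.000502) and 0.61 with all libraries (adjusted p = 0.708). The smaller p rests on the spread within the close pairs alone, which may be technical.

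Of 32 other replication genes outside the 45, 31 were tested. With ERCC scaling 16 of 31 were lower in low serum in wild type and 23 of 31 in ΔLEO1, with medians of -1.25 and -1.24 and none higher, beside 36.1% and 47.2% of all genes lower. The smallest p in wild type were those of the checkpoint mediator CLSPN (-2.15), the clamp unloading factor ATAD5 (-2.22), the nuclease and helicase DNA2 (-2.19), topoisomerase TOP2A (-1.84), the histone chaperone ASF1B (-1.97) and the fork protection factor TIMELESS (-1.83). Under TMM scaling 5 were lower and 2 higher in wild type, the latter being the histone chaperone ASF1A (0.73) and the RNase H2 subunit RNASEH2B (0.36). In ΔLEO1, 4 were lower and 1, RNASEH2B (0.61), was higher. The shares lower under TMM scaling were near the background of 16.6% and 12.9% of all genes. Between genotypes none of the 31 was called on the ERCC scale by the edgeR likelihood ratio test, with 1 (10% serum) and 6 (0.1% serum) at an unadjusted p under 0.05. Under TMM scaling 4 were higher and 2 lower in ΔLEO1 in 10% serum and 5 higher and 2 lower in 0.1% serum, with RNASEH2B at -1.19 (adjusted p = 2.16e-14) and -0.94 (adjusted p = 1.92e-09).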

How the data were processed

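Poly(A) RNA of BJ-5ta fibroblasts with ERCC spike-ins was sequenced with a stranded kit. Per the labels and the methods of the study, the authors aligned reads with STAR and assigned them to GENCODE v29 genes on GRCh38 with featureCounts, and they deposited raw counts per gene and per spike-in transcript. From these counts, genes above 1 CPM in at least 3 libraries were fitted with edgeR 4.0.16 (R 4.3.3), a negative binomial model of all 12 libraries in 4 groups with two-sided likelihood ratio tests, scaled by ERCC totals times their TMM factors. Adjusted p-values are Benjamini-Hochberg values over all genes tested. Alternatives were TMM scaling on the genes, the quasi-likelihood test, DESeq2 1.42.0, other filters, summed libraries and libraries left out. For library values 17 members were picked, by a rule that took those called under both scalings, those called between genotypes and those with the largest or smallest fold change. For POLA1 among them, fold changes are given in the text without library values. The scripts were tested on simulated data. The members and gene lists were chosen with earlier results of these data known. Promoter sequences are from RefSeq. The libraries held 26240632 to 45315560 gene counts.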

Additional observations from a re-analysis of the deposited data

How the results depend on the processing

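The labels give no pairing of libraries across groups, so no paired analysis was run. Fits with the highest-numbered libraries of each serum level as a covariate are given below. In wild type, against 39 members called lower in low serum, TMM on the genes gave 10, DESeq2 with gene size factors 12, TMM with the quasi-likelihood test 6, an adjusted p under 0.01 gave 20, and adding up the 2 lowest-numbered libraries within groups gave 1. The median of -1.48 became -0.39, -0.38 and, with the highest-numbered libraries as a covariate under TMM, -0.68, and without libraries 3, 6, 9 and 12 it was -1.90 on the ERCC scale and -0.86 under TMM. In ΔLEO1, against 39, TMM gave 7, DESeq2 with gene size factors 7, TMM with the quasi-likelihood test 4, an adjusted p under 0.01 gave 14, fitting only the libraries compared 16, and summing 0. Its median of -1.38 became -0.35 under both gene scalings, -2.32 without libraries 3, 6, 9 and 12, -2.15 with the covariate, and -0.60 without those libraries under TMM. Leaving out 1 library gave 11 to 45 calls and 6 to 45 calls, with medians of -1.87 to -1.18 and -2.06 to -1.05. The fits with 11 and 6 calls, without library 1 and library 10, called 9.1% and 4.82% of all genes lower. With ERCC scaling 36.1% of all genes were lower in wild type and 47.2% in ΔLEO1, and with TMM 16.6% and 12.9%. For settings without an all-gene share here or above, the counts describe the setting and not the members.

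Between genotypes in 10% serum, against 0 called, TMM gave 4, DESeq2 with gene size factors 5, fitting only the libraries compared 3, leaving out libraries 3, 6, 9 and 12 gave 2, the covariate 3, TMM without those libraries 29, TMM with the covariate 28, TMM with the quasi-likelihood test 2, and leaving out 1 library 0 to 3 (2 without library 11, 3 without library 12). In 0.1% serum, against 1, the same settings gave 3, 5, 0, 0, 0, 34, 25 and 2. There the quasi-likelihood test, no filter, summing and an adjusted p under 0.01 each gave 0, filterByExpr gave 2, and leaving out 1 library 0 to 11 (11 without library 11, 2 without library 3, 1 without library 1 and 0 without any other). Of all genes, TMM without libraries 3, 6, 9 and 12 called 31.0% higher and 32.5% lower in 10% serum. In 0.1% serum these shares were 31.2% and 29.7%. For settings without an all-gene share here or above, the counts describe the setting and not the members. Member medians without 1 library were 0.20 to 0.91 and 0.026 to 0.95. The interaction, with 0 called, gave 15 with TMM without libraries 3, 6, 9 and 12 (17.3% of all genes positive and 9.85% negative). Its median lay between -0.53 and 0.49 without 1 library. POLA2 in 10% serum turned from -0.38 on the ERCC scale to 0.027 without library 1 (adjusted p = 0.978 by edgeR), and lay at -0.72 without library 3. Of the other alternatives for single members, 159 lost a call, 34 gained one and 794 did neither. The alternatives that join TMM scaling with left-out libraries, the covariate or the quasi-likelihood test were chosen after seeing the data, and why the counts moved was not tested.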
